A study of Homo sapiens with 6 samples.

Results

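The 10 genes of iron uptake, storage and sensing described here were TFRC, STEAP3, SLC11A2, FTH1, FTL, NCOA4, SLC40A1, IREB2, ACO1 and FBXL5, chosen by symbol from the 61859 genes with values in the deposited table. Each symbol had 1 row, and all 10 were among the 18460 genes tested, those whose normalized counts averaged 10 or more across the 6 libraries. RNA was sequenced from OSC19SSZR cells, a sulfasalazine-resistant oral squamous cell carcinoma line, 48 h after transfection with FOXA1 siRNA (n = 3) or control siRNA (n = 3). FOXA1 is a pioneer factor of the forkhead family that gives other regulators access to DNA in epithelial cells, and sulfasalazine blocks the cystine transporter xCT. All 6 libraries came from the resistant line, so the comparison is of FOXA1 knockdown within resistant cells. The labels do not say whether replicates were separate cultures, so p-values measure only how these libraries scatter, and that scatter may be technical.

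Most cells take up iron bound to transferrin through the transferrin receptor, reduce it in the endosome and pass it to the cytosol. Iron that is not used is stored in ferritin, from which it can be released by autophagy, and it leaves the cell through ferroportin. Iron regulatory proteins bind short hairpins, the iron-responsive elements, when iron is scarce. A hairpin in the 5′ UTR then blocks translation, as in the ferritin mRNAs, and hairpins in the 3′ UTR then protect the mRNA from decay, as in the transferrin receptor mRNA. Labile iron also drives the lipid peroxidation of ferroptosis, a form of death to which cystine-starved cells are prone.

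FOXA1 itself had 247, 192 and 189 normalized counts with FOXA1 siRNA, against 1477, 1378 and 1459 with control siRNA (log2 fold change -2.79 ± 0.09 (SE), limma adjusted p = 3.32e-18). Reads per library came to 17888212, 25732569 and 16510125 with FOXA1 siRNA and 19233157, 17923190 and 17286040 with control siRNA. Of 9 squamous epithelial markers, 9 were above the filter, although KRT14 averaged only 47.6 normalized counts with FOXA1 siRNA and 30.0 with control siRNA. KRT6A had 178, 72.1 and 64.0 with FOXA1 siRNA and 50.4, 38.3 and 802 with control siRNA, so control siRNA replicate 3 dominated its control mean. Of the markers of other cells that handle much iron, CD163, SPI1 and TYROBP of macrophages, HBB of erythroid cells and ALB of hepatocytes had 0 reads in all 6 libraries. The summed level of the 8 leukocyte markers was 78.2 to 103 normalized counts with FOXA1 siRNA and 107 to 118 with control siRNA, of which CD68 averaged 85.2 with FOXA1 siRNA and 97.6 with control siRNA. That of the 8 erythroid markers was 105 to 113 with FOXA1 siRNA and 120 to 140 with control siRNA, of which EPOR, the erythropoietin receptor gene, averaged 100.1 with FOXA1 siRNA and 123 with control siRNA, and HBA1 had 0 to 8 reads per library. That of the 6 hepatocyte markers was 1.52 to 7.12 with FOXA1 siRNA and 11.4 to 22.2 with control siRNA, with 4, 1 and 4 reads of SERPINA1 in the FOXA1 siRNA libraries and 9, 19 and 10 in the control libraries. The part of these markers in the results was not tested. In bulk RNA a change in the number of cells in a given state and a change in RNA per cell cannot be told apart.

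Iron-responsive elements were located first, because they divide the genes by the way iron acts on their mRNA. In GENCODE release 29 (GRCh38), protein-coding transcripts were searched on the sense strand for CAGTGN with the last base A, C or T, a C exactly 5 bases before it, and at least 4 of 5 base pairs between the 5 bases on either side, G paired with T included. A match lay in the 5′ UTR of 1.05% and in the 3′ UTR of 3.42% of 19669 protein-coding genes. Among the 10 iron genes 7 had a match, and STEAP3, NCOA4 and FBXL5 had none. The pattern misses some known elements: of 6 other mRNAs listed as holding one, it did not match 3, those of EPAS1, CDC42BPA and HAO1. No match therefore does not show that an element is absent. In the sequences shown, 5′ to 3′ as in the mRNA with T for U, the 6 loop bases are in capitals. The 3′ UTR of TFRC held 4 matches with all 5 pairs, and that of SLC11A2 held a match with 4 pairs:

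TFRC site 1, chr3:196050980-196051006, minus strand: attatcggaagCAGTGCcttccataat
TFRC site 2, chr3:196050576-196050602, minus strand: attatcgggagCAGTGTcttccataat
TFRC site 3, chr3:196050511-196050537, minus strand: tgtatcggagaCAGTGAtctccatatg
TFRC site 4, chr3:196050464-196050490, minus strand: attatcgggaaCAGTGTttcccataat
SLC11A2, chr12:50988270-50988296, minus strand: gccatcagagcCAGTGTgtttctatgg

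The 5′ UTRs of both ferritin genes and of the ferroportin gene SLC40A1 held a match with all 5 pairs, and the FTH1 and FTL windows were identical at 25 of 27 bases:

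FTH1, chr11:61967575-61967601, minus strand: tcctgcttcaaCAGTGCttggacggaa
FTL, chr19:48965336-48965362, plus strand: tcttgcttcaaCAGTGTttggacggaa
SLC40A1, chr2:189580662-189580688, minus strand: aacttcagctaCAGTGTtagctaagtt

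The 3′ UTRs of IREB2 and ACO1 each held a match with 4 pairs, in 1 of 4 and 1 of 3 coding transcripts. These genes are not known for an iron-responsive element of their own, and such a match occurs in the 3′ UTR of 3.42% of genes. Of 18 coding transcripts annotated for SLC11A2, 5 carried the site, and of 5 for SLC40A1, 1 did. By contrast, 3 of 4 of TFRC, 7 of 8 of FTH1 and the only one of FTL carried theirs. The deposited values are per gene, so the SLC11A2 or SLC40A1 transcripts with and without the site could not be told apart.

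Of the 10 iron genes, 6 rose (TFRC, STEAP3, FTH1, FTL, NCOA4 and ACO1), 1 fell (SLC11A2) and 3 did not pass the test (SLC40A1, IREB2 and FBXL5). These calls, 7 of 10, stand beside 51.8% of all genes tested, of which 26.8% rose and 25.0% fell (4954 and 4617 genes; with libraries scaled to equal totals, 3594 and 5967). The median log2 fold change was 0.13 for the 10 genes and 0.00 for all genes tested. With equal totals 4 of the 10 rose and 1 fell, with medians of 0.04 for the 10 and -0.09 for all. With quantile normalization 4 rose and 2 fell, with medians of 0.05 for the 10 and 0.03 for all. With the deposited scaling, the share of all genes that rose climbed with expression level. It was 31.8% among genes averaging 200 to 1000 normalized counts and 59.3% among genes averaging 3000 or more. TFRC, FTH1, FTL and NCOA4 belong to this highest class, whose median log2 fold change was 0.19. The log2 fold changes of TFRC (0.33) and NCOA4 (0.27) were above that median, and those of FTL (0.16) and FTH1 (0.11) below it. For 7 of the 10 genes the groups did not overlap, as for 57.6% of all genes tested.

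**Figure D1:**
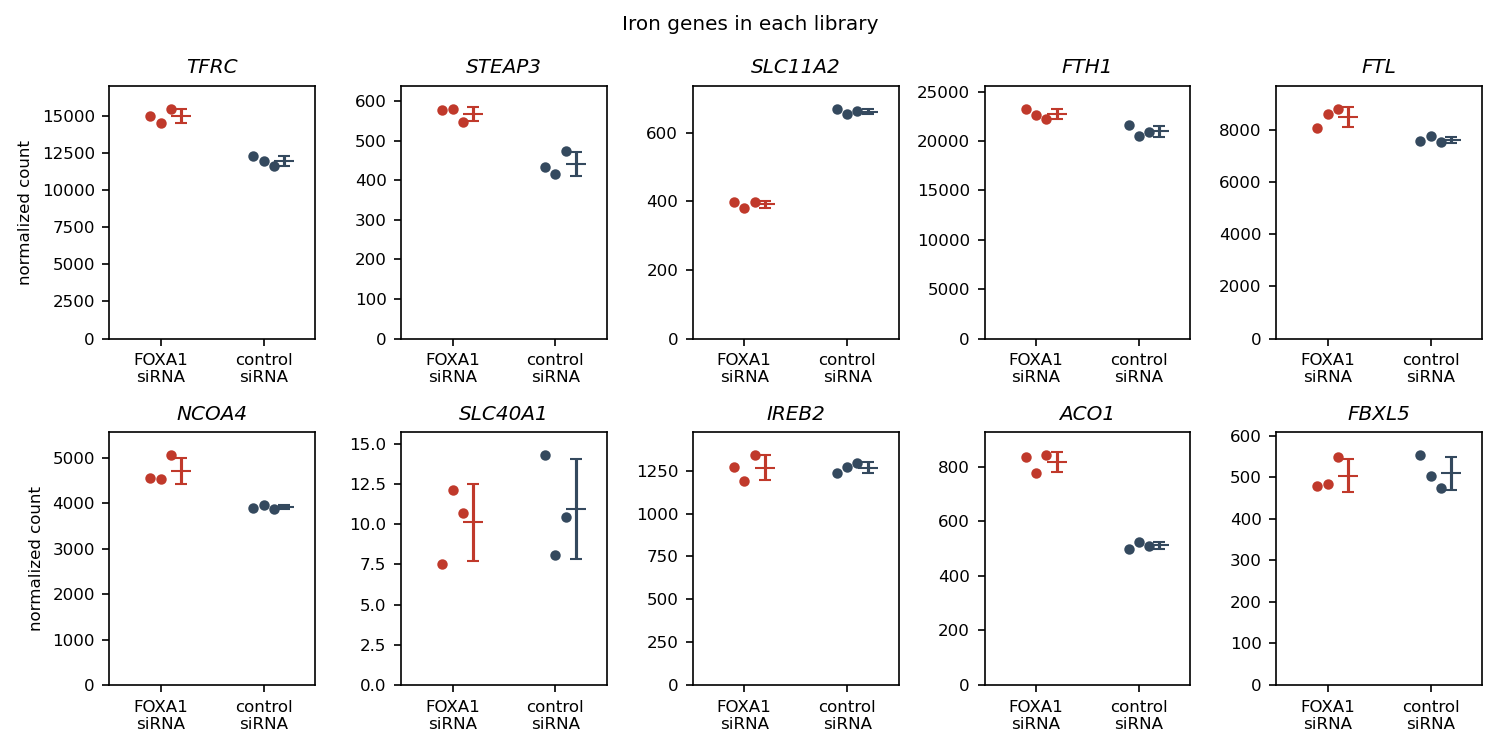
Normalized counts (vertical axes, each starting at 0) of the 10 iron genes in the 3 FOXA1 siRNA libraries (red) and the 3 control siRNA libraries (dark), with mean ± SD beside the points. The groups are apart for TFRC, STEAP3, SLC11A2, FTH1, FTL, NCOA4 and ACO1, and overlap for SLC40A1, IREB2 and FBXL5.

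TFRC (ENSG00000072274, chromosome 3, 196027183 to 196082189, minus strand) encodes the transferrin receptor, which carries transferrin-bound iron into the endosome. It had 15056, 14569 and 15503 normalized counts with FOXA1 siRNA, against 12351, 11955 and 11680 with control siRNA. Each FOXA1 siRNA library was above each control library. The mean was 15043 ± 467 with FOXA1 siRNA and 11996 ± 337 with control siRNA (SD, n = 3 each), a level 25.4% higher with FOXA1 siRNA (log2 fold change 0.33 ± 0.04 (SE), limma adjusted p = 3.39e-07). With libraries scaled to equal totals the log2 fold change was 0.23, and with quantile normalization it was 0.17, and it passed under both.

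STEAP3 (ENSG00000115107, chromosome 2, 119223831 to 119265652, plus strand), the endosomal reductase that turns ferric into ferrous iron, also rose. Its normalized counts were 577, 581 and 547 with FOXA1 siRNA, against 435, 417 and 475 with control siRNA. Again no library of either group reached into the other. STEAP3 was 28.5% higher with FOXA1 siRNA (log2 fold change 0.36 ± 0.08 (SE), limma adjusted p = 2.51e-04). An antisense gene, STEAP3-AS1, shares 500 exonic bases with it and stood at 119 ± 8.28 with FOXA1 siRNA and 99.1 ± 2.32 with control siRNA (SD, n = 3 each). The sources used here do not say whether the counting used strand, so reads from the shared bases could belong to either gene.

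SLC11A2 (ENSG00000110911, chromosome 12, 50979401 to 51028566, minus strand) encodes DMT1, which moves ferrous iron out of the endosome and, in the gut, into the enterocyte. Alone among the 10 genes it fell. Its normalized counts were 397, 379 and 397 with FOXA1 siRNA, against 669, 653 and 662 with control siRNA. The gap between the groups was many times the spread within either. The mean was 391 ± 10.1 with FOXA1 siRNA and 661 ± 7.99 with control siRNA (SD, n = 3 each), so that its level fell by 40.8% (log2 fold change -0.76 ± 0.07 (SE), limma adjusted p = 1.36e-09). TFRC and SLC11A2 changed in opposite directions. Both had a 3′ UTR match, in 3 of 4 coding transcripts of TFRC and 5 of 18 of SLC11A2. The part of these elements in either change was not tested. The ratio of TFRC to SLC11A2 normalized counts was 38.0, 38.4 and 39.0 with FOXA1 siRNA, against 18.5, 18.3 and 17.6 with control siRNA.

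FTH1 (ENSG00000167996, chromosome 11, 61959718 to 61967660, minus strand), the ferritin heavy chain, which oxidizes iron as it enters the shell, had 23241, 22611 and 22256 normalized counts with FOXA1 siRNA, against 21575, 20493 and 20909 with control siRNA. The groups stood apart by little, 22256 at the lowest with FOXA1 siRNA and 21575 at the highest with control siRNA. FTH1 was 8.15% higher with FOXA1 siRNA (log2 fold change 0.11 ± 0.04 (SE), limma adjusted p = 0.0234).

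FTL (ENSG00000087086, chromosome 19, 48965301 to 48966878, plus strand), the light chain, which helps the mineral core form, had 8084, 8632 and 8817 normalized counts with FOXA1 siRNA, against 7603, 7771 and 7543 with control siRNA. All 3 FOXA1 siRNA libraries were above the controls (log2 fold change 0.16 ± 0.05 (SE), limma adjusted p = 0.00533). The direction of both ferritin genes depended on the scaling. The sum of all normalized counts was 19174648 to 19582289 with FOXA1 siRNA and 18080921 to 18291465 with control siRNA, and scaling to equal totals moved the median log2 fold change of all genes to -0.09. Under equal totals the log2 fold change was 0.015 for FTH1 (limma adjusted p = 0.772) and 0.057 for FTL (limma adjusted p = 0.273). Under quantile normalization it was -0.13 for FTH1, which then passed as lower (limma adjusted p = 0.00788), and -0.041 for FTL (limma adjusted p = 0.430). The call of FTH1 was also lost without control siRNA replicate 2 (limma adjusted p = 0.128), without control siRNA replicate 3 (limma adjusted p = 0.0842), without FOXA1 siRNA replicate 1 (limma adjusted p = 0.0745), with edgeR's quasi-likelihood test on recovered reads (adjusted p = 0.0686), with limma run without trend and robust (adjusted p = 0.134) and with the replicate number as a block (limma adjusted p = 0.0604). That of FTL was lost with limma run without trend and robust (adjusted p = 0.0760). The ratio of FTH1 to FTL was 2.67 ± 0.18 with FOXA1 siRNA and 2.75 ± 0.10 with control siRNA (SD, n = 3 each), and the groups overlapped.

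The FTH1 count has a further limit, in a gene picked out after its values were seen. BEST1, a chloride channel gene best known from the retinal pigment epithelium, lies on the opposite strand, and 1267 of the 8930 bases of its merged exons overlap exons of FTH1. Its row held 16715, 16136 and 15514 normalized counts with FOXA1 siRNA, against 15317, 14383 and 14487 with control siRNA. In every library that was 69.3% to 71.9% of the FTH1 value. Whether these reads came from FTH1 mRNA was not tested. With both rows summed, the log2 fold change came to 0.12 ± 0.04 (SE; limma adjusted p = 0.0153), beside 0.11 for FTH1 alone. Ferritin pseudogenes took few reads: the 25 rows named as FTH1 pseudogenes summed to 0.225% to 0.387% of the FTH1 value over the 6 libraries, and the 16 named as FTL pseudogenes to 0.0928% to 0.222% of the FTL value.

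**Figure D2:**
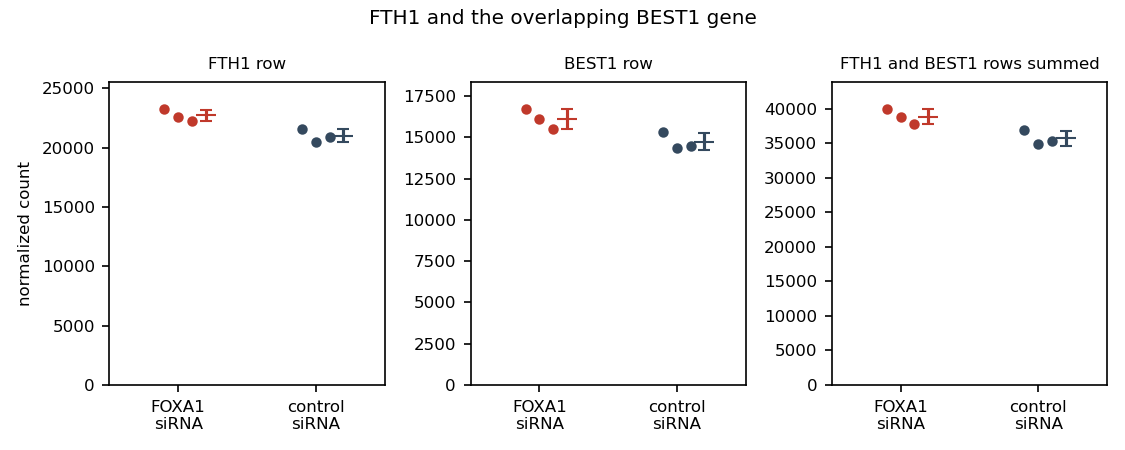
Normalized counts (vertical axes, each starting at 0) of the FTH1 row, the BEST1 row and their sum in the FOXA1 siRNA libraries (red) and the control siRNA libraries (dark), with mean ± SD beside the points. The order of the libraries within each group is the same in both rows, and BEST1 stands at 69.3% to 71.9% of FTH1.

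NCOA4 (ENSG00000266412, chromosome 10, 46005088 to 46030714, minus strand) encodes the receptor that delivers ferritin to the autophagosome. It had 4561, 4545 and 5059 normalized counts with FOXA1 siRNA, against 3901, 3975 and 3886 with control siRNA. FOXA1 siRNA replicate 3 was the highest, and the other two were still above each control (log2 fold change 0.27 ± 0.05 (SE), limma adjusted p = 5.10e-05). It passed with equal totals (0.17) and quantile normalization (0.13).

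SLC40A1 (ENSG00000138449, chromosome 2, 189560579 to 189583758, minus strand) encodes ferroportin, the iron exporter of vertebrate cells. Its level was close to the filter, with 7, 16 and 9 reads in the FOXA1 siRNA libraries and 15, 8 and 10 in the control libraries. In normalized counts it stood at 10.1 ± 2.37 with FOXA1 siRNA and 10.9 ± 3.12 with control siRNA (SD, n = 3 each). The groups overlapped fully, and the 95% interval of the log2 fold change, ran from -0.96 to 0.78, so changes within those bounds were compatible with these few reads.

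The sensors differed from each other. ACO1 (ENSG00000122729, chromosome 9, 32384603 to 32454769, plus strand) encodes iron regulatory protein 1, which is an aconitase while it holds an iron-sulfur cluster and binds RNA without it. It had 834, 776 and 841 normalized counts with FOXA1 siRNA, against 499, 525 and 510 with control siRNA. Every FOXA1 siRNA library was far above every control, and the mean was 59.7% higher with FOXA1 siRNA (log2 fold change 0.67 ± 0.07 (SE), limma adjusted p = 4.21e-09). This was the largest rise among the 10 genes, and it lay at the 94.1 percentile of the log2 fold changes of all genes tested.

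IREB2 (ENSG00000136381, chromosome 15, 78437431 to 78501456, plus strand) encodes iron regulatory protein 2, which holds no cluster and is controlled by its degradation. It stood at 1269 ± 73.6 normalized counts with FOXA1 siRNA and 1268 ± 31.1 with control siRNA (SD, n = 3 each). The 95% interval of its log2 fold change was -0.12 to 0.12. FBXL5 (ENSG00000118564, chromosome 4, 15604539 to 15681679, minus strand), the ubiquitin ligase subunit that marks iron regulatory protein 2 for degradation when iron is plentiful, stood at 504 ± 39.4 with FOXA1 siRNA and 510 ± 39.4 with control siRNA (SD, n = 3 each; 95% interval of the log2 fold change -0.18 to 0.15). The ratio of ACO1 to IREB2 was 0.654, 0.651 and 0.628 with FOXA1 siRNA, against 0.404, 0.412 and 0.394 with control siRNA, so the mRNA of protein 1 gained on that of protein 2 in every library. The ratio of IREB2 to FBXL5 was 2.52 ± 0.12 with FOXA1 siRNA and 2.50 ± 0.25 with control siRNA (SD, n = 3 each), with overlap.

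**Figure D3:**
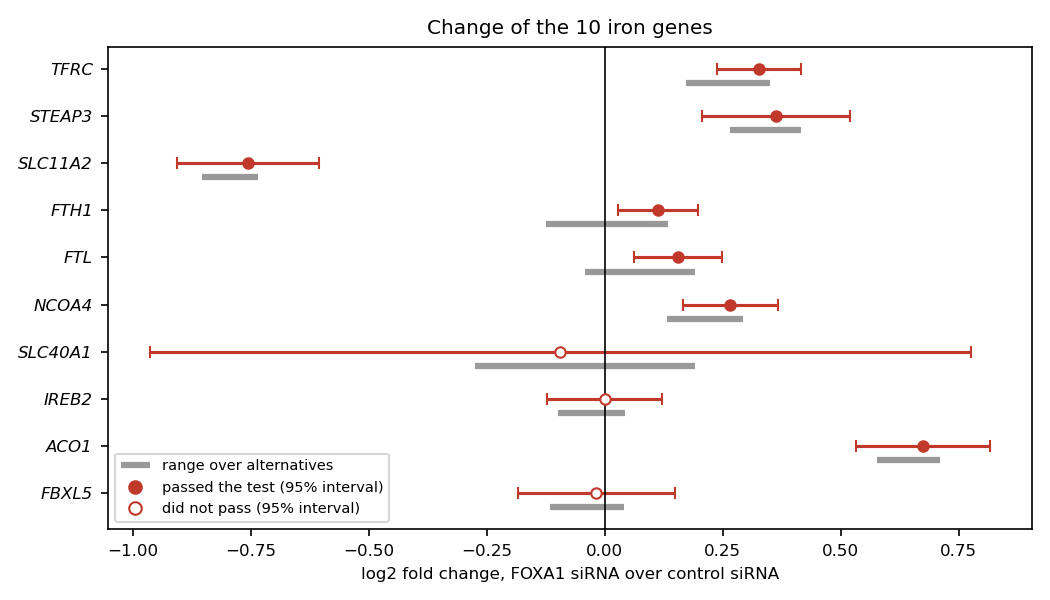
Log2 fold change of FOXA1 siRNA over control siRNA (horizontal axis) for the 10 iron genes, with 95% intervals of the limma fit (red, filled where the gene passed) and the range over the alternative settings (grey bars). The grey bars of TFRC, STEAP3, SLC11A2, NCOA4 and ACO1 stay on one side of 0, and those of FTH1, FTL, SLC40A1, IREB2 and FBXL5 cross it.

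For each of the 7 genes whose groups did not overlap, exact permutation of the 6 library labels (two-sided) gave p = 0.1, and no smaller p is possible with 3 against 3. In the authors' deposited table the same 7 genes had an adjusted p under 0.05, where 37.0% of 21657 genes did, with log2 fold changes of 0.33 for TFRC, 0.36 for STEAP3, -0.76 for SLC11A2, 0.11 for FTH1, 0.16 for FTL, 0.27 for NCOA4 and 0.67 for ACO1.

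Levels between genes were compared as normalized counts per kilobase of merged exon. The ferritin mRNAs stood highest by far. FTH1 was at 11184 ± 246 with FOXA1 siRNA and 10341 ± 269 with control siRNA, and FTL at 9694 ± 434 with FOXA1 siRNA and 8700 ± 134 with control siRNA (SD, n = 3 each). TFRC followed at 1907 ± 59.2 with FOXA1 siRNA and 1521 ± 42.8 with control siRNA, and then NCOA4 at 1158 ± 71.6 with FOXA1 siRNA and 961 ± 11.6 with control siRNA. No library of a gene among these 4 reached the level of its neighbour in the same group. The next genes were close to each other. With FOXA1 siRNA, STEAP3 stood at 125 ± 4.05, IREB2 at 117 ± 6.81, FBXL5 at 110 ± 8.62 and ACO1 at 108 ± 4.75 per kilobase, and each of these overlapped its neighbour. With control siRNA, IREB2 at 117 ± 2.88 and FBXL5 at 112 ± 8.61 overlapped, as did FBXL5 and STEAP3 at 96.9 ± 6.54, whereas ACO1 was lower at 67.7 ± 1.68, just above SLC11A2 and without overlap. SLC11A2 was at 38.6 ± 1.00 with FOXA1 siRNA and 65.2 ± 0.788 with control siRNA, and SLC40A1 at 2.33 ± 0.548 with FOXA1 siRNA and 2.52 ± 0.722 with control siRNA. The merged exon includes bases that the main transcript may lack, so these levels are approximate.

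**Figure D4:**
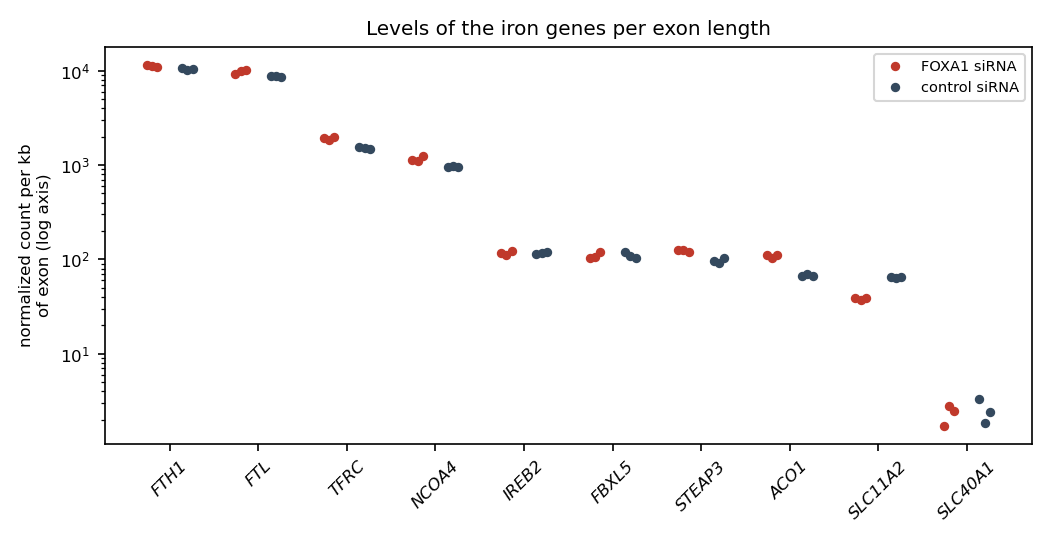
Normalized count per kilobase of merged exon (vertical axis, logarithmic) of the 10 iron genes in each FOXA1 siRNA library (red) and each control siRNA library (dark), ordered by the control mean. Ferritin is at the top, SLC40A1 at the bottom, and IREB2, FBXL5 and STEAP3 lie close together.

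Other genes of iron metabolism were taken from 8 lists of 104 genes in all, of which 94 were tested. Of these 38 rose, 16 fell and 40 did not pass, or 57.4% called beside 51.8% of all genes, with a median log2 fold change of 0.08. By direction, 26.8% of all genes tested rose and 25.0% fell, and 31.8% rose among those averaging 200 to 1000 normalized counts. Of 22 tested genes of mitochondrial iron import and iron-sulfur cluster assembly, 14 rose, 0 fell and 8 did not pass, or 63.6% called. Their median log2 fold change was 0.28 (0.19 with equal totals, where 12 rose and 1 fell, and 0.24 with quantile normalization). At an unadjusted p under 0.05 in limma 15 were higher and 0 lower, and by edgeR on recovered reads 14 rose and 0 fell. Without control siRNA replicate 2 or FOXA1 siRNA replicate 1, 1 gene of the list fell. Genes of the mitochondrial genome took 6.65% to 7.11% of normalized counts with FOXA1 siRNA and 7.19% to 7.68% with control siRNA, without overlap, and the part of this difference in the list's change was not tested. The glutaredoxin gene GLRX5, which passes clusters on, stood at 1215 ± 64.0 with FOXA1 siRNA and 729 ± 38.6 with control siRNA (SD, n = 3 each, log2 fold change 0.74 ± 0.07 (SE)). LYRM4, the partner of the cysteine desulfurase, stood at 581 ± 49.7 with FOXA1 siRNA and 390 ± 29.9 with control siRNA (SD, n = 3 each) and rose by 0.57 ± 0.08 (SE) on the log2 scale.

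In the cytosolic iron-sulfur list 4 of 9 tested genes rose and 1 fell (55.6% called beside 51.8% of all genes tested, median log2 fold change 0.08, or -0.02 with equal totals). NDOR1, an electron donor of the pathway, rose by 0.45 ± 0.08 on the log2 scale, the scaffold gene NUBP2 by 0.37 ± 0.08 and the targeting factor gene MMS19 by 0.37 ± 0.06 (SE). The gene that fell was CIAO2A, whose product in human cells matures the cluster of iron regulatory protein 1, at 628 ± 54.7 with FOXA1 siRNA and 779 ± 1.51 with control siRNA (SD, n = 3 each, log2 fold change -0.31 ± 0.07 (SE), limma adjusted p = 5.63e-04). ACO1 rose and CIAO2A fell in the same libraries.

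Of 13 tested genes of iron sensing and mRNA decay, 3 rose and 2 fell (38.5% called beside 51.8% of all genes tested, median log2 fold change -0.01). Besides MMS19 and CIAO2A, CUL1, the scaffold of the FBXL5 ligase, rose by 0.34 ± 0.06 on the log2 scale, and NFE2L2, the antioxidant regulator NRF2, which drives ferritin and heme oxygenase genes, by 0.21 ± 0.05 (0.02 with quantile normalization, limma adjusted p = 0.696). RC3H1, an RNA-binding protein of mRNA decay, fell (-0.19 ± 0.08, limma adjusted p = 0.0422), a call lost under 9 alternatives, in 5 of which a library was left out. BACH1, a heme-sensitive repressor (0.13 ± 0.08, limma adjusted p = 0.136), and KEAP1, the inhibitor of NRF2 (-0.10 ± 0.05, limma adjusted p = 0.124), did not pass. KEAP1 passed as lower with equal totals and quantile normalization, and BACH1 passed as higher without FOXA1 siRNA replicate 2 (limma adjusted p = 0.0219).

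Of 20 heme genes tested, 8 rose and 5 fell with the deposited scaling (65% called beside 51.8% of all genes tested, median log2 fold change 0.05). With equal totals 4 rose and 8 fell (median -0.05). HMOX1, heme oxygenase 1, which frees iron from heme, rose to 65.1 ± 9.52 with FOXA1 siRNA, against 24.0 ± 1.15 with control siRNA (SD, n = 3 each, log2 fold change 1.39 ± 0.22 (SE), limma adjusted p = 7.06e-06), at a low level in both groups. HMOX2, the constitutive form, rose by 0.32 ± 0.07 on the log2 scale and the transporter gene FLVCR2 by 0.53 ± 0.16 (SE). The mitochondrial transporter gene ABCB10 fell to 78.6 ± 4.54, against 284 ± 15.5 with control siRNA (SD, n = 3 each, log2 fold change -1.84 ± 0.12 (SE), limma adjusted p = 6.63e-13), and ABCB6 (-0.67 ± 0.09) and FLVCR1 (-0.39 ± 0.10) fell as well.

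**Figure D5:**
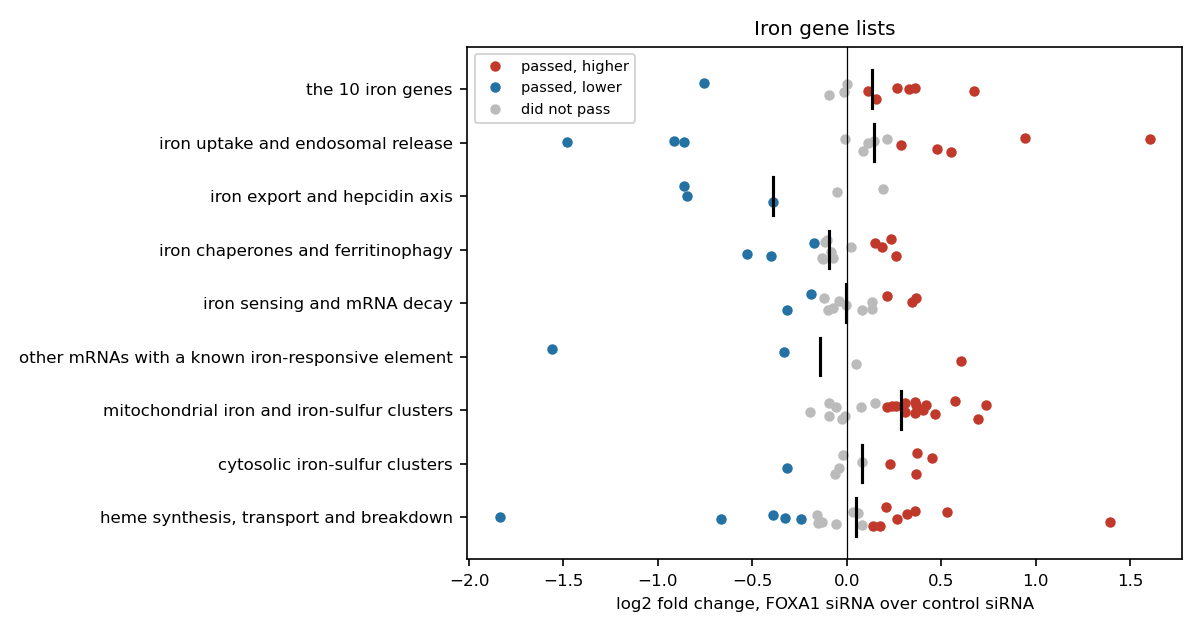
Log2 fold change of FOXA1 siRNA over control siRNA (horizontal axis) of each tested gene in the 10 iron genes and the 8 other iron lists, in red where the gene passed as higher, blue where it passed as lower and grey where it did not pass, with the list's median as a black bar. The mitochondrial list has 14 red, 0 blue and 8 grey points.

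Of 13 other tested genes of iron uptake and release from the endosome, 5 rose and 3 fell (61.5% called beside 51.8% of all genes tested, median log2 fold change 0.14). STEAP1 (0.94 ± 0.22) and the metalloreductase gene STEAP4 (0.55 ± 0.22) rose, from the family of STEAP3, and so did SNX3 (0.47 ± 0.05 (SE)), a sorting nexin that recycles the transferrin receptor. The call of STEAP4 was lost under 6 alternatives, among them the fits without control siRNA replicate 2, without FOXA1 siRNA replicate 2 and without FOXA1 siRNA replicate 3. Another 4 called genes averaged under 50 normalized counts and are named after their values were seen. The zinc and iron transporter gene SLC39A8 rose, at 47.7 ± 3.83 with FOXA1 siRNA and 15.0 ± 0.99 with control siRNA (SD, n = 3 each, log2 fold change 1.60 ± 0.26 (SE), limma adjusted p = 1.02e-05). The 3 that fell were SLC22A17 (-1.48), TFR2 (-0.86) and SLC11A1 (-0.92). Without control siRNA replicate 1 or 2, or FOXA1 siRNA replicate 1 or 3, 1 gene of this list fell rather than 3. TF, the gene of transferrin itself, was below the filter, at 0.253 ± 0.438 with FOXA1 siRNA and 2.67 ± 0.582 with control siRNA (SD, n = 3 each).

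Of 5 tested genes of export and the hepcidin axis, 0 rose and 3 fell (60% called beside 51.8% of all genes tested, median log2 fold change -0.39). With edgeR on recovered reads 0 rose too, and 1 was higher at an unadjusted p under 0.05 in limma. Without control siRNA replicate 3, 1 gene rose. Of all genes tested 25.0% fell. In this list 2 genes rather than 3 fell with quantile normalization, a mean of at least 50 or DESeq2. With 1 library left out, 2 to 3 fell. CP, ceruloplasmin, a ferroxidase that works beside ferroportin, stood at 141 ± 14.5 with FOXA1 siRNA and 253 ± 15.3 with control siRNA (SD, n = 3 each, log2 fold change -0.85 ± 0.11 (SE), limma adjusted p = 4.39e-07). FLVCR1 and TFR2, the others that fell, are shared with lists above, and HAMP, hepcidin, was below the filter. TFR2 was near the filter, at 12.8 ± 2.74 with FOXA1 siRNA and 24.6 ± 7.33 with control siRNA (SD, n = 3 each).

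Of 14 tested genes of iron chaperones and ferritin autophagy, 4 rose and 3 fell (50% called beside 51.8% of all genes tested, median log2 fold change -0.09). With equal totals or quantile normalization 2 rose and 8 fell. Without FOXA1 siRNA replicate 3, 6 of them fell. The autophagy gene ATG16L1 (0.26 ± 0.07), the glutaredoxin gene GLRX3 (0.24 ± 0.06) and the chaperone gene PCBP2 (0.19 ± 0.05, or 0.09 with equal totals, where it did not pass) rose, while MAP1LC3B (-0.53 ± 0.06) and ATG7 (-0.40 ± 0.07), which build the autophagosome, fell, as did HERC2 (-0.17 ± 0.06 (SE)), the ubiquitin ligase that degrades NCOA4. The fall of HERC2 was lost without control siRNA replicate 2, without control siRNA replicate 3 and with limma run without trend and robust. PCBP1, which hands iron to ferritin, did not pass (-0.10, limma adjusted p = 0.0522), though it passed as lower under 7 alternatives. Of 4 tested mRNAs outside the 10 genes that are known to hold an iron-responsive element, the kinase gene CDC42BPA rose (0.61 ± 0.08), and the phosphatase gene CDC14A (-1.56 ± 0.18) and EPAS1 (-0.33 ± 0.05 (SE)), which encodes HIF-2 alpha, fell.

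Promoters from RefSeq (GRCh38.p14, 250 bases before to 50 after the gene start) were found for 9 of the 10 genes and searched on both strands. That of FTH1 was missing and was not searched. The forkhead words TGTTTAC and TATTTAC stood in 0 of the 9, and in 5.97% of 35116 promoters. So few promoters cannot tell 0 from that share. Sites outside these 300 bases were not searched, and binding of FOXA1 was not tested. The antioxidant response element TGACNNNGC stood in the promoters of NCOA4 and FBXL5, and in 13.3% of all promoters. The E-box CACGTG stood in that of FBXL5, where it overlaps the antioxidant word, and in 7.26% of all promoters. FBXL5 did not pass the test, while NCOA4 rose, and any part of the word in that rise was not tested. The RefSeq starts behind the NCOA4 and FBXL5 matches lie inside the gene spans given above, so they differ from the starts of those spans. The NCOA4 match, picked because the gene rose, begins 23 bases after the RefSeq start and is in capitals:

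NCOA4, chr10:46019958-46019986, minus strand: ctctgaaagcTGACAGTGCtctaactgcg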

How the data were processed

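Groups came from the sample titles. Per the labels, the library kit was NEBNext Ultra RNA. The submitters' processing notes name HISAT2, DESeq2, GRCh38 and GRCm38 without roles or versions, and strand and counting are not given in the sources used here. The authors deposited a normalized signal for each gene and library. That it is counts scaled by a size factor per library was inferred from the values. Per the file headers, the deposit also holds the authors' log2 fold change, its standard error and a test statistic (score), and p-values from the authors, raw and adjusted. Malformed lines (3 of 61862) were left out. In every library 100% of values were whole reads to within 0.01, which gave 16510125 to 25732569 reads per library.

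The test was limma 3.58.1 (R 4.3.3; trend and robust) on log2(normalized count + 1), which understates changes of low genes, with Benjamini-Hochberg adjustment over 18460 genes and a threshold of 0.05. The unit was not raw counts, so edgeR 4.0.16, DESeq2 1.42.0 and limma-voom were run on recovered reads as alternatives; edgeR called 4784 genes higher and 4869 lower. Other alternatives changed the pseudocount (0.5 or 5), filter, scaling, limma options and replicate block, or left out each library. The limma step was also run on simulated data. These had far fewer changed genes than were called here, so that run cannot judge the scaling or the calls. The chi-square per gene between replicates was 2.52 to 5.13, above sampling noise. The members and the lists were chosen with earlier results of these data known. Besides the 10 genes and FOXA1, up to 3 genes per list and direction were named by the size of the log2 fold change among called genes averaging at least 50 normalized counts, and HMOX1, NFE2L2, BACH1, KEAP1, PCBP1 and TF whatever their result; some genes that this rule names are not reported here. Of the marker lists, 4 of 9 squamous genes rose and 2 fell; of leukocyte, erythroid, fibroblast and endothelial markers 1 each was tested (CD68, EPOR, COL1A1 and CDH5), and COL1A1 and CDH5 fell; of 6 hepatocyte markers 0 were tested. Iron-responsive elements were searched in GENCODE release 29 and promoters in RefSeq with Python 3.11.15.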

Additional observations from a re-analysis of the deposited data

How the results depend on the processing

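TFRC, STEAP3, SLC11A2, NCOA4 and ACO1 kept direction and call under all 18 alternatives. FTH1 had log2 fold changes of 0.015 with equal totals, -0.13 with quantile normalization, 0.11 with limma without trend and robust, 0.097 with edgeR and 0.096 to 0.13 with 1 library left out. FTL had 0.057 with equal totals, -0.041 with quantile normalization and 0.16 with limma without trend and robust. SLC40A1 had 0.19 with quantile normalization and -0.28 to 0.087 with 1 library left out, a range that was -0.040 to 0.043 for IREB2 and -0.081 to 0.042 for FBXL5. The cause of these changes was not tested. Over the alternatives, 4 to 6 of the 10 genes rose. With equal totals 4 rose and 1 fell, and with quantile normalization 4 rose and 2 fell. Adding the BEST1 reads to FTH1, an alternative chosen after seeing the data, gave 0.12.

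In the uptake list 1 gene fell with no filter and 0 with a mean of at least 50 (which removes all 3). There 1 fell with DESeq2 and 1 to 3 with 1 library left out. In the export list 0 to 1 rose and 2 to 3 fell with 1 left out. In that list 2 fell with quantile normalization, a mean of at least 50 or DESeq2. In the chaperone list 2 rose with equal totals and 2 with quantile normalization; 8 fell with each of these, 5 with recomputed median-of-ratios factors, 6 with edgeR, 6 with limma-voom and 2 to 6 with 1 left out. In the sensing list 4 fell with equal totals and 4 with quantile normalization; 1 fell with no filter, limma without trend and robust, the block or DESeq2, and 1 to 2 with 1 left out. In the mitochondrial list 1 fell with equal totals and 0 to 1 with 1 left out. In the heme list 4 rose and 8 fell with equal totals, and 5 rose with quantile normalization.

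Replicate numbers did not pair the libraries (correlations of same-numbered deviations -0.01, 0.01 and -0.01). With the replicate block the log2 fold change of FTH1 was 0.11 (limma adjusted p = 0.0604), and 1 gene of the sensing list fell. SLC40A1 was limited by depth, with 7 to 16 reads per library.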
